A study of Mus musculus with 670 samples.

Results

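The genes described here encode proteins of mineralised bone matrix and the enzymes that act on them: Bglap, Bglap2, Ibsp, Spp1, Dmp1, Phex, Mepe, Ifitm5, Alpl and Col22a1. They were taken by name as rows of the deposited table, and all 10 were found among its 55604 gene rows. Bglap and Bglap2 are near copies and share reads, so where genes are counted in a cell they were treated as 1 locus, which leaves 9 loci. Single cells sorted as skeletal stem cells from digested mouse long bones, without culture or treatment, were sequenced by SmartSeq2, a full-length single-cell RNA method. All wells were labelled male, and the groups were ages: postnatal day 3 (95 wells on plate 9), 2 months (96, 96 and 95 wells on plates 1, 3 and 4) and 24 months (96 wells on each of plates 2, 5 and 12), 670 wells in all. The labels name no strain, surface marker or animal for any group. With 1 sample per age there is therefore no test between ages, and differences among plates only describe how far these wells vary.

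Osteoblasts build bone by secreting a collagen I scaffold and loading it with small acidic proteins that bind mineral, and some of them become buried in it as osteocytes. Osteocalcin, the product of Bglap and Bglap2, marks late osteoblasts. Bone sialoprotein (Ibsp) and osteopontin (Spp1) belong to the SIBLING family of phosphorylated matrix proteins, which also includes Dmp1 and Mepe, 2 genes best known from osteocytes. Tissue-nonspecific alkaline phosphatase (Alpl) cleaves pyrophosphate, a blocker of mineral growth, and is shared by osteoblasts, their precursors and hypertrophic cartilage.

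The coding sequences of Bglap and Bglap2 are shown because they limit what can be said of each gene alone. Capitals mark the bases at which they differ, in the GENCODE M21 transcripts of GRCm38.
Bglap: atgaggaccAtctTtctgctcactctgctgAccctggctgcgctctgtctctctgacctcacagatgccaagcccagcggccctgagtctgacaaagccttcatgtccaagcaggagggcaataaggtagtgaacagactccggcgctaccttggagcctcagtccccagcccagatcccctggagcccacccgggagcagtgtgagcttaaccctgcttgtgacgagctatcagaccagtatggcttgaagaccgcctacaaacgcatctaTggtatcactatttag
Bglap2: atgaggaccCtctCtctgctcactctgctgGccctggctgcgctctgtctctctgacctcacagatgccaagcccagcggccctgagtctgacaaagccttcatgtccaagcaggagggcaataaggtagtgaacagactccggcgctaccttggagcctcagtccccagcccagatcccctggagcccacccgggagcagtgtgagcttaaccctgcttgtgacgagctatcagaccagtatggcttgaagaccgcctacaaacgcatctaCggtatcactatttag
The sequences differ at 4 bases, written A10C, T14C, A31G and T273C with the Bglap base first and positions counted from the start codon. They are 98.6% identical. Of all windows of 75 bases along the Bglap transcript, 66.1% occur unchanged in Bglap2 and 3.01% in Bglap3, the third gene of the cluster. Of those along the Bglap2 transcript, 15.1% occur unchanged in Bglap3. The coding part of Bglap lies at chr3:88383635-88384415 and that of Bglap2 at chr3:88377870-88378650, both on the minus strand, and each spans 4 exons. RSEM, the counting program, shares such reads out by estimate, so levels of Bglap and Bglap2 are given separately only as the table holds them. Bglap3 itself was listed low, at 0, 1.04 and 2.70 CPM in mean at postnatal day 3, 2 months and 24 months.

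Dmp1, Ibsp, Mepe and Spp1 lie beside one another on chromosome 5 and, with the dentin gene Dspp, fill 270.3 kb. Upstream windows are shown for the members in which a script found ACCACA, the core of the element that Runx factors bind, or its reverse complement TGTGGT. Each window is the 250 bases before a RefSeq transcript start in GRCm38.p6, with matches in capitals.
Bglap upstream window, chr3:88384467-88384716, minus strand: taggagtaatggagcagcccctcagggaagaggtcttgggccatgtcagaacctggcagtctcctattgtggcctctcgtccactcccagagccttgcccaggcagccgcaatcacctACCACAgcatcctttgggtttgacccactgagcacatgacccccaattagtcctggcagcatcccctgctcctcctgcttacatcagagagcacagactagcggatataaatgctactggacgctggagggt
Spp1 upstream window, chr5:104434861-104435110, plus strand: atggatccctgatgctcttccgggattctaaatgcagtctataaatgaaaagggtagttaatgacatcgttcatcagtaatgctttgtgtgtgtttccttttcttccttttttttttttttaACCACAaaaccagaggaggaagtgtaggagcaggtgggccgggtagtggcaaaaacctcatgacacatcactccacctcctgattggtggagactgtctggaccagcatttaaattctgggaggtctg
Dmp1 upstream window, chr5:104202367-104202616, plus strand: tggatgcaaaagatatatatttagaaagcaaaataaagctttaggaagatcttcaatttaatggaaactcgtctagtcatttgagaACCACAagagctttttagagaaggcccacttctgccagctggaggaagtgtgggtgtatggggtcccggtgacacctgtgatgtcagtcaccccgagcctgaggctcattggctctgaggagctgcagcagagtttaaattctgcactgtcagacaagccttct
Mepe upstream window, chr5:104325079-104325328, plus strand: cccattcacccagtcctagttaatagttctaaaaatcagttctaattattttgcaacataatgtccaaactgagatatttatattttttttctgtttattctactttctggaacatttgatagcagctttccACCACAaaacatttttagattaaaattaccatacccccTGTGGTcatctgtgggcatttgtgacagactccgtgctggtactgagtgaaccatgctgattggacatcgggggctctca
Of the 10 members, 8 had a RefSeq window, with 11 windows in all, of which the 4 shown held the motif on either strand. Over all 32851 windows of this length, 14% held it. Bglap, Spp1 and Dmp1 each had 1 match, and Mepe had 1 on each strand. Col22a1 and Bglap2 had no entry. A match describes letters and not a bound site.

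Wells were kept as cells from 1000 genes and 50000 gene reads on, if mitochondrial transcripts made up less than 20% of the reads. This left 68 cells at postnatal day 3, 15, 70 and 69 cells on plates 1, 3 and 4 of 2 months, and 5 cells on each of the 3 plates of 24 months. Median gene reads per passing cell were 1100501, 677706 and 2733872 at the 3 ages in that order, and median genes per cell 2236, 1754 and 1140. Fewer genes were thus seen per cell at 24 months in spite of more reads. The plates also differed in spike-in reads, which come from added control RNA. Their median share over all wells of a plate, passing or not, was 96.85%, 98.90% and 95.14% on plates 2, 5 and 12 of 24 months. It was 76.01%, 8.92% and 11.49% on plates 1, 3 and 4 of 2 months, and 5.88% at postnatal day 3. This difference runs with age, and its part in the comparisons with 24 months was not tested. Plates 2, 9 and 12 carry batch 3, and no batch holds 2-month wells with another age, so any comparison with 2 months is also one between batches, and the 2 cannot be told apart. Cartilage genes were high in many cells, given here as CPM (reads scaled to the same gene-read total). The summed level of 8 cartilage markers had a median of 47361 CPM in the cells of 2 months that held fewer than 4 of the loci.

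Levels are given as CPM of the summed reads of a plate's passing cells, and an age's level is the mean of its plates. Per kilobase of merged exons the order at 2 months ran from Spp1 (3336 CPM per kb) and Ibsp (2294) through Bglap2 (1026) and Bglap (866) to Ifitm5 (132.6), Alpl (106.96), Dmp1 (90.5), Mepe (23.1), Col22a1 (21.8) and Phex (3.57). Only broad steps of this order exceed the spread between plates, since the plate SD was as large as the mean or larger for Bglap, Bglap2, Phex, Mepe, Ifitm5 and Col22a1.

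Osteocalcin was almost absent at postnatal day 3. Bglap read 4.35 CPM on the single plate of that age, against 1386, 41.3 and 178.1 CPM on plates 1, 3 and 4 of 2 months and 200.7, 2034 and 976 CPM on plates 2, 5 and 12 of 24 months. Bglap2 read 1.5 CPM at postnatal day 3, 1123, 30.9 and 296 CPM at 2 months, and 230.5, 2217 and 1938 CPM at 24 months. Every adult plate stood above the newborn plate for both genes, while the 2 adult ages overlapped. The mean of 2 months was 123.1-fold that of postnatal day 3 for Bglap and 323-fold for Bglap2. These folds rest on few cells. At 2 months a single cell held 54.02% of the Bglap reads, and a single cell held 46.69% of the Bglap2 reads. At postnatal day 3 the shares of the top cell were 98.78% and 75.22%. The means also lean on plate 1, the highest of the 2-month plates for both genes. Read as 1 locus, osteocalcin was found in 2 of 68 cells at postnatal day 3, 37 cells (24.0%) at 2 months and 5 of 15 at 24 months when every cell was thinned at random to 50000 reads.

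Among the SIBLING genes, Spp1 was the most abundant member at both adult ages by the mean of the plates. On plate 3 of 2 months Ibsp was higher, and the passing cells of 2 months together held 719758 Ibsp and 714809 Spp1 reads. A single cell held 27.8% of these Spp1 reads. The level of Spp1 was 259.5 CPM at postnatal day 3, 3563, 2316 and 10613 CPM on the 2-month plates, and 11184, 9216 and 2258 CPM on the 24-month plates. The newborn value came from 2 cells, 1 of which held 99.99% of the Spp1 reads. Ibsp read 329 CPM at postnatal day 3, 756, 6586 and 6891 CPM at 2 months, and 1252, 2344 and 417 CPM at 24 months. The newborn cell with nearly all Spp1 reads also held 97.5% of the newborn Ibsp reads, so both newborn levels rest on 1 cell. Both genes lay above the newborn level on every adult plate, 21.2-fold higher at 2 months for Spp1 and 14.4-fold for Ibsp by the means. In thinned cells Spp1 was found in 1 of 68 at postnatal day 3, 46 (29.9%) at 2 months and 11 of 15 at 24 months. Ibsp was found in 5 of 68, 35 (22.7%) and 7 of 15.

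Dmp1 and Mepe, the osteocyte SIBLING genes, had 0 reads at postnatal day 3. At 2 months Dmp1 read 279.3, 0.37 and 471 CPM on plates 1, 3 and 4, and at 24 months 178.3 CPM on plate 5 and 0 on the other two. The 2-month mean was 250.2 CPM. By cells, 0 of 68 newborn cells held a Dmp1 read, with an upper limit of 5.28% by the exact binomial interval. At 2 months 9 cells did (5.84%, 2.71% to 10.8%), so the intervals overlap. No lower bound for the fold is given, because pooled reads from so few cells cannot set one. A single cell held 55.5% of the Dmp1 reads of 2 months. Mepe was confined to 3 passing cells of 2 months, 2 of them on plate 4 at 7702 and 5357 CPM and 1 with a single read. At 24 months 0 of 15 passing cells held a Mepe read, with an upper limit of 21.8% by the exact binomial interval.

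Phex encodes a membrane peptidase whose loss causes phosphate wasting, and Ifitm5 a small membrane protein of osteoblasts in which mutation causes a form of brittle bone disease. Phex had 0 reads at postnatal day 3, read 54.3, 0.34 and 12.6 CPM on the 2-month plates, and 2.61 CPM on plate 2 of 24 months with 0 on plates 5 and 12. Ifitm5 read 2.50 CPM at postnatal day 3, 278.1, 0 and 26.3 CPM at 2 months, and 211.5, 162.04 and 0 CPM at 24 months. In thinned cells Phex was found in 0 of 68 at postnatal day 3, 6 (3.9%) at 2 months and 1 of 15 at 24 months. Ifitm5 was found in 2 of 68, 3 (1.95%) and 3 of 15 (20%). Where Ifitm5 was found it could be strong, with 2040.0 CPM in its highest cell of 2 months and 1430 CPM in that of 24 months.

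Col22a1, a collagen of tissue junctions that is also made by osteoblasts, had 0 reads at postnatal day 3. It read 596, 0.05 and 5.91 CPM on the 2-month plates and 230.3, 140.8 and 0 CPM on those of 24 months. A single cell of plate 1, at 3458 CPM, held 97.7% of all Col22a1 reads of 2 months. Ifitm5 overlaps the gene model Gm45717 on its own strand, Spp1 overlaps Gm42793, and Col22a1 has an antisense partner, Gm16308, so reads of these genes could be divided with another model.

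Alpl read 446 CPM at postnatal day 3, 141.5, 567 and 585 CPM at 2 months, and 0, 3333 and 2.39 CPM on plates 2, 5 and 12 of 24 months. The newborn level lay inside the range of 2 months, and the 24-month plates spanned all others. It was found in 9 of 68 thinned cells at postnatal day 3, 44 (28.6%) at 2 months and 4 of 15 at 24 months.

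**Figure D1:**
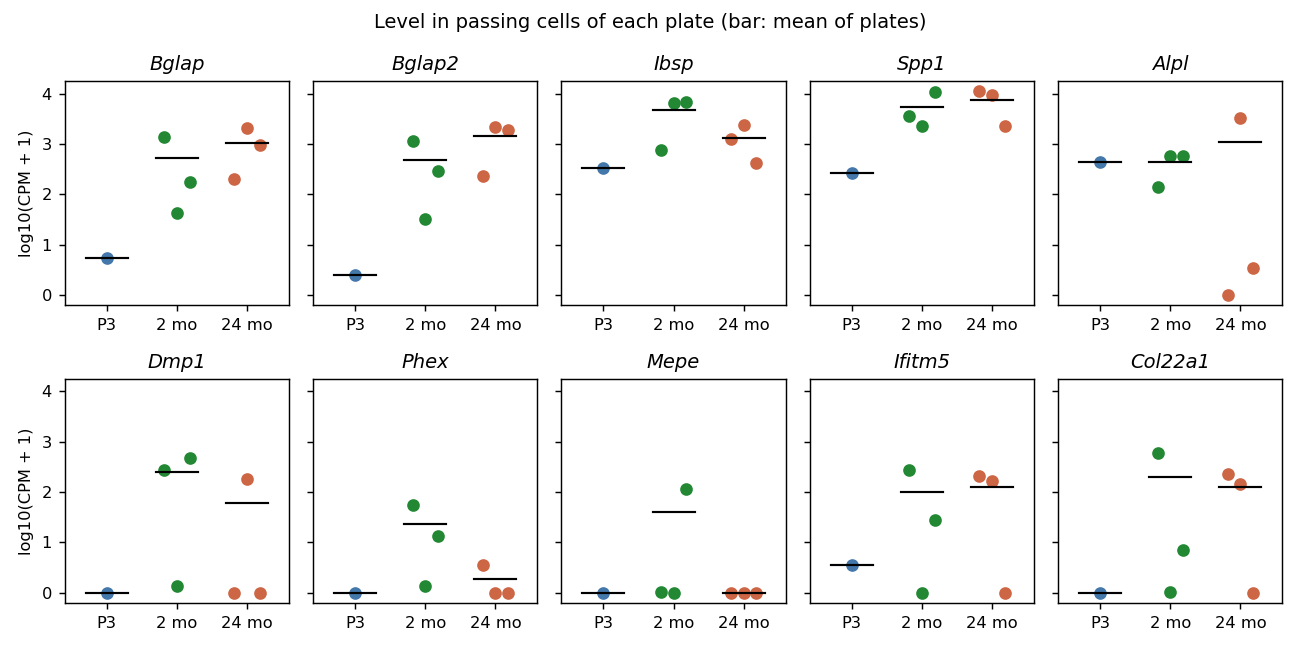
Level of each gene on the log10(CPM + 1) scale (vertical axis) by age (horizontal axis), with 1 point per plate and a bar at the mean of the plates. Bglap, Bglap2, Ibsp and Spp1 lie above the newborn point on all 6 adult plates, Alpl does not, and Dmp1, Phex, Mepe and Col22a1 have no read at postnatal day 3.

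Comparisons between ages used a rule of size: at least 10 CPM at the higher age, means at least 2-fold apart after adding 1 CPM, and no overlap between the plates of the 2 ages. For postnatal day 3 against 2 months, 7 of the 10 members were lower at postnatal day 3 (Bglap, Bglap2, Ibsp, Spp1, Dmp1, Phex and Col22a1) and 0 were higher. Of all 9656 genes tested, 37.7% met the rule, 10% as lower and 27.7% as higher at postnatal day 3. The median log2 fold of the members was -5.09, against 0.18 over all genes that reached 5 CPM at 1 age or both. With genes at 0 set to the level of 3 pooled reads, the median of the members was -7.12. That value is no bound, since so few cells held several of these genes. Mepe and Ifitm5 were missed because 2-month plates without a read overlapped the newborn plate, and Alpl because its means were 446 and 431 CPM. The calls for Dmp1, Phex and Col22a1 lean on plate 3 of 2 months, which held 21, 19 and 3 reads of them against 0 at postnatal day 3. Without plate 1, 5 members were lower, with Phex and Col22a1 lost, and without plate 3, 9 were.

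For 24 against 2 months, 0 of the 10 members met the rule by size, while 31.2% of 8804 genes did (1.54% higher and 29.7% lower at 24 months). The mean at 24 months was 2.00-fold that of 2 months for Bglap, 3.02-fold for Bglap2, 1.37-fold for Spp1, 2.58-fold for Alpl and 1.23-fold for Ifitm5. The 2-month mean was 3.55-fold that of 24 months for Ibsp, 4.21-fold for Dmp1, 25.8-fold for Phex and 1.62-fold for Col22a1. With wells from 500 genes on, the sign turned for Dmp1 and Phex (log2 fold 2.73 and 1.71) and for Ifitm5, then lower at 24 months. It also turned for Col22a1 without plate 1 (4.97). Plates of the 2 ages overlapped for every one of these genes. The median log2 fold of the members was -0.20 and that of all genes -2.63, with 5 passing cells behind each 24-month plate. Without plate 1 Bglap (higher) and Ibsp (lower) met the rule, and without plate 2 Bglap2 (higher) and Phex (lower). Without plate 5 Dmp1 and Alpl were lower, and without plate 3 Dmp1, Phex and Mepe were.

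For 24 months against postnatal day 3, 4 of the 8 members tested were higher at 24 months (Bglap, Bglap2, Ibsp and Spp1) and 0 were lower. Of all 9062 genes tested, 56.2% met the rule, 2.59% as higher and 53.6% as lower. The means were 246.2-fold apart for Bglap, 976-fold for Bglap2, 4.06-fold for Ibsp and 29.1-fold for Spp1. Dmp1, Ifitm5, Alpl and Col22a1 each had at least 1 plate of 24 months without a read. Phex and Mepe stayed under 10 CPM at both ages. Within batch 3, which holds the newborn plate and plates 2 and 12 of 24 months, the same 4 genes were higher and Alpl was lower, at a log2 fold of -7.67 against 1.31 with plate 5 included. The 3 comparisons share samples in pairs, so they do not count as separate support for one another. Newborn cells had the highest median number of genes per cell of the 3 ages, 2236.

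The levels were also computed with wells from 500 genes on, which gave 65 wells at 24 months and 30, 78 and 76 on the plates of 2 months. Spp1 then averaged 25053 CPM at 24 months (9037, 47342 and 18779 CPM on plates 2, 5 and 12) against 9026 CPM at 2 months. Dmp1 averaged 1640.2 CPM at 24 months (1462, 2938 and 519.7 CPM) against 246.5 CPM at 2 months (140.1, 0.36 and 599 CPM). Both genes were thus higher in mean at 24 months, but the plates still overlapped and again 0 of the 10 members met the rule against 2 months. Ifitm5 turned lower in mean at 24 months, with 85.3, 60.5 and 0 CPM against 139.5, 0 and 25.5 CPM at 2 months. The means of Ibsp came nearer to each other (4476, 2976 and 5133 CPM at 24 months, 987, 6600 and 6707 CPM at 2 months), as did those of Bglap2. Against postnatal day 3, Dmp1 joined the other 4 genes, which made 5 members higher.

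**Figure D2:**
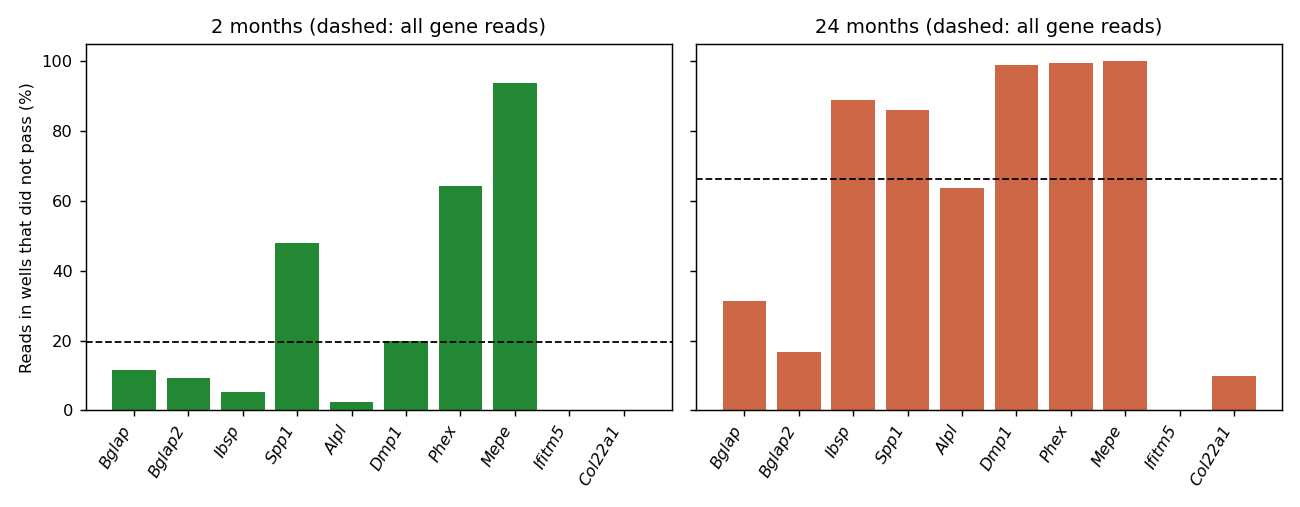
Share of each gene's reads (vertical axis, percent) in wells that did not pass, for 2 months (left) and 24 months (right), with a dashed line at the share of all gene reads. Spp1, Phex and Mepe stand well above the line at 2 months, and Ibsp, Spp1, Dmp1, Phex and Mepe at 24 months.

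**Figure D3:**
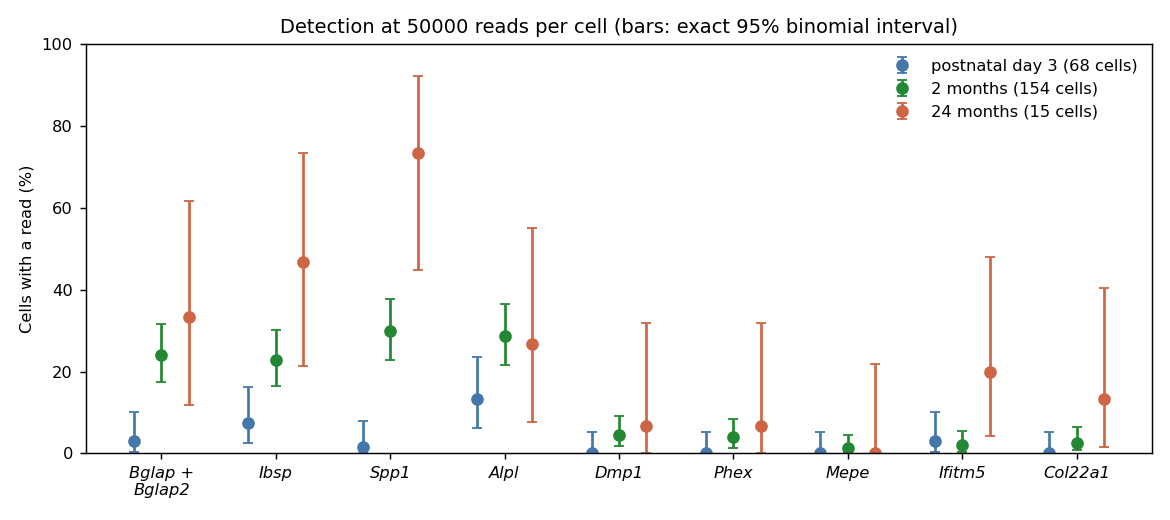
Share of passing cells with at least 1 read of each locus (vertical axis, percent) at the 3 ages after thinning to 50000 reads, with exact (Clopper-Pearson) 95% binomial intervals. Osteocalcin, Spp1 and Ibsp were found in a smaller share of newborn cells than of 2-month cells, and the 24-month intervals are wide because 15 cells passed.

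Counted per cell, 10 of 68 newborn cells held at least 1 of the 9 loci (14.7%, exact 95% interval 7.28% to 25.4%). At 2 months 95 cells did (61.7%, 53.5% to 69.4%), and at 24 months 11 of 15 (73.3%, 44.9% to 92.2%). The shares on single plates were 40% (6 of 15), 58.6% and 69.6% on plates 1, 3 and 4, and 80%, 80% and 60% on plates 2, 5 and 12. All adult plates thus stood above the newborn plate. Intervals cover the counting of cells only and not differences between animals or plates.

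Cells with several loci together were few. At least 4 loci were found in 1 of 68 newborn cells (1.47%, 0.04% to 7.92%), 11 cells of 2 months (7.14%, 3.62% to 12.4%) and 4 of 15 cells of 24 months (26.7%, 7.79% to 55.1%). The 24-month cells were 1 on plate 2 and 3 on plate 5, and the 2-month cells 1, 3 and 7 on plates 1, 3 and 4. Among 2-month cells, 59 held no locus, 48 held 1, 25 held 2 and 11 held 3. The intervals of 2 and 24 months overlap. The newborn cell held 19594 CPM of Ibsp, 15834 CPM of Spp1, 2995 CPM of Alpl and 28152 CPM of Col2a1, with 0 reads of osteocalcin and Col1a1. It also held 22820 CPM of Col10a1, a gene of hypertrophic cartilage, and 3467 CPM of the cartilage marker Cnmd.

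**Figure D4:**
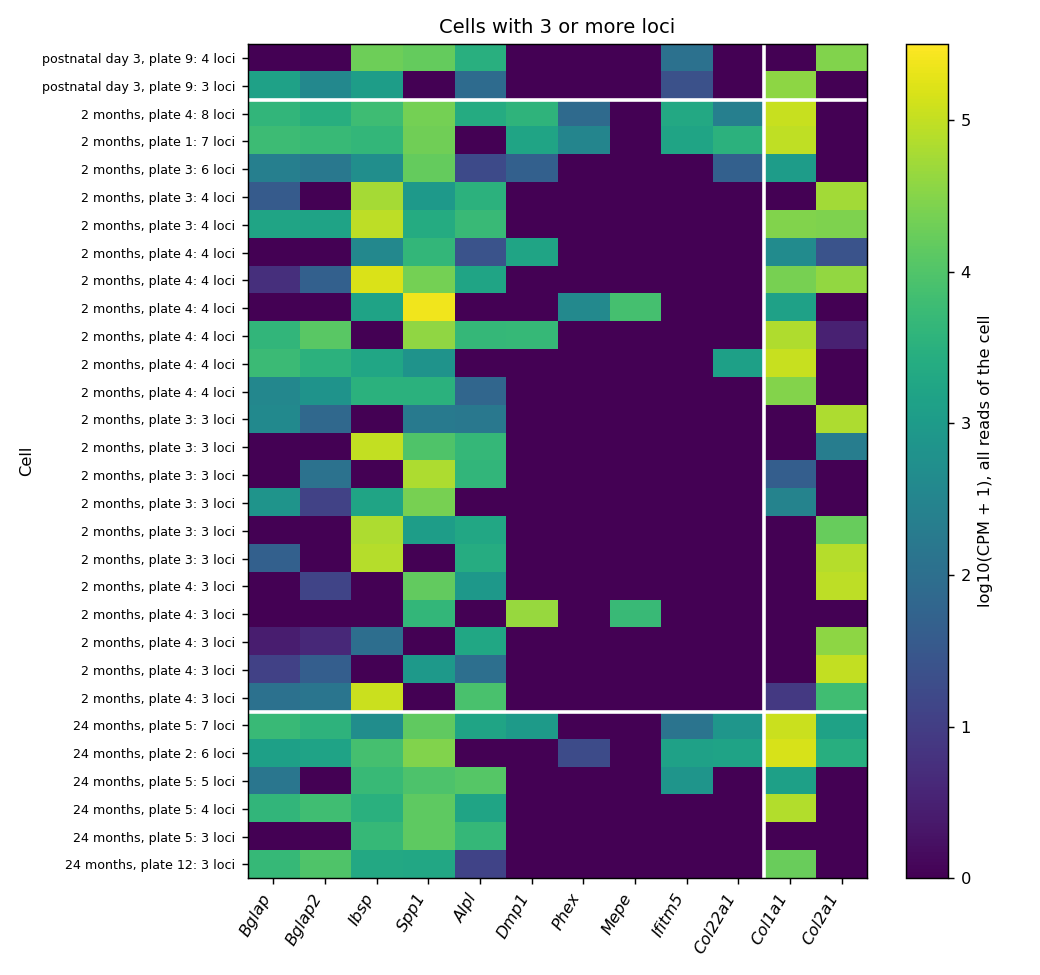
Level per cell as log10(CPM + 1) from all reads (colour) for the 30 cells with 3 or more loci in thinned reads, in rows by age and plate, with the members in the left columns and Col1a1 and Col2a1 in the right ones. The cells brightest for Bglap and Col22a1 are bright for Col1a1, several of those brightest for Ibsp are bright for Col2a1, and the cell brightest for Dmp1 has neither collagen.

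The cell with the most loci, 8 of 9, came from plate 4 of 2 months and lacked only Mepe. It held 4126 CPM of Bglap, 22027 CPM of Spp1, 3771 CPM of Dmp1, 2040.0 CPM of Ifitm5 and 110530.05 CPM of Col1a1, with 0 reads of Col2a1. A cell of plate 1 with 7 loci held 5999 CPM of Bglap, 20531 CPM of Spp1, 1619 CPM of Dmp1, 3458 CPM of Col22a1 and 94625 CPM of Col1a1. These cells thus combined late osteoblast and osteocyte transcripts with very high collagen I. At 24 months, a cell of plate 5 held 7 loci with 5440.4 CPM of Bglap, 992 CPM of Dmp1 and 115154 CPM of Col1a1, and a cell of plate 2 held 6 with 28692 CPM of Spp1, 1557 CPM of Col22a1 and 147613 CPM of Col1a1.

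Other cells carried the osteocyte genes without osteocalcin. On plate 4, a cell with 45724 CPM of Dmp1 and 5357 CPM of Mepe, also at 2332 CPM of Sp7, had 0 reads of Bglap, Bglap2, Ibsp, Alpl and Col1a1. A further cell of that plate held 7702 CPM of Mepe, 381 CPM of Phex and 235368 CPM of Spp1, with 1384 CPM of Col1a1 and no osteocalcin read. No thinned cell of any age held Mepe together with osteocalcin, Ifitm5, Alpl or Col22a1, but only 2 thinned cells held Mepe.

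The cells with the most Ibsp formed another pattern. The highest, on plate 4 of 2 months, held 153119 CPM of Ibsp with 40896 CPM of Col2a1, 23029 CPM of Col1a1 and 476 CPM of Sp7, but 4.63 CPM of Bglap. The next 6 cells by Ibsp, at 58597 to 112160 CPM, held 1970.0 to 8398 CPM of Alpl, and 5 of the 6 held 6655 to 78886 CPM of Col2a1. The exception, at 96653 CPM of Ibsp, held 217.6 CPM of Col2a1 and no osteocalcin read. Osteocalcin varied among these cells, with 1615 CPM of Bglap beside 28955 CPM of Col1a1 in the cell at 90159 CPM of Ibsp, and 0 to 110 CPM of Bglap in the other five. Of the 27 cells of 2 months at 1000 CPM of Ibsp or more, 15 also reached 1000 CPM of Col2a1, 14 reached it for Col1a1 and 4 for both. Col2a1 was common at this age with or without Ibsp. Its median was 2195 CPM in 2-month cells with Ibsp and 41647 CPM in those without. The medians of Col1a1 were 287.1 and 0 CPM. Across the 2-month cells Ibsp had Pearson's r = 0.46 with Col1a1 and -0.24 with Col2a1. Cells with Ibsp thus held less Col2a1 and more Col1a1 than those without, by the medians.

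Pairs of loci were found together unequally. At 2 months all 4 cells with Col22a1 held osteocalcin, Ibsp and Spp1, and all 7 cells with Dmp1 held Spp1. Spp1 and Ibsp met in 22 cells, which is 62.9% of the Ibsp cells and 47.8% of the Spp1 cells. Alpl met osteocalcin in 20 cells, 45.5% of the Alpl cells and 54.1% of the osteocalcin cells. The highest correlation across the 2-month cells was between Ifitm5 and Col22a1 (Pearson's r = 0.65 on log2(CPM + 1)), while Alpl and Col22a1 had r near 0. Cells share plates, depth and many zeros, and Ifitm5 and Col22a1 rest on a handful of cells, so these are descriptions.

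To see where the loci lay relative to bone and cartilage collagen, cells were divided at 1000 CPM of Col1a1 and of Col2a1, a limit set after the values were seen. At 2 months 16 cells reached it for Col1a1 only, 7 for both, 20 for neither and the rest for Col2a1 only. At least 4 loci were found in 7 of the 16 cells, 2 of the 7, 1 of the 20 and 1 cell of the large Col2a1-only class. Over all ages 14 cells lay within 2-fold of the Col1a1 limit and 10 within 2-fold of the Col2a1 limit. In the Col1a1-only cells, Ibsp was found in 12 of 16, Spp1 in 11, osteocalcin in 6, and Dmp1 and Col22a1 in 4 each. In the Col2a1-only cells, Alpl was found in 34 (30.6%), osteocalcin in 27, Spp1 in 23 and Ibsp in 16, but Phex in 2 and Dmp1 in 1, and Ifitm5, Mepe and Col22a1 in 0. Osteocalcin in Col2a1-only cells was mostly low, with a mean of 121.2 CPM against 2801 CPM in Col1a1-only cells.

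**Figure D5:**
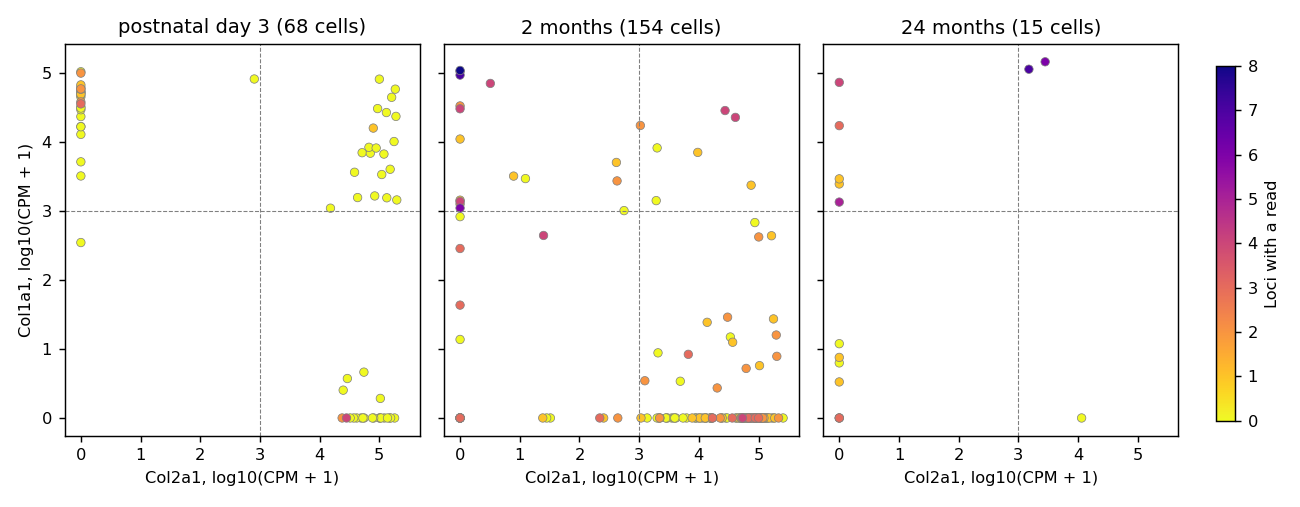
Col1a1 (vertical axis) against Col2a1 (horizontal axis), both as log10(CPM + 1), with 1 point per passing cell, a panel per age and colour for the number of loci found; dashed lines mark 1000 CPM. Dark points, with many loci, lie high on the Col1a1 axis at 2 and 24 months, and most newborn cells with Col1a1 are pale.

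At postnatal day 3 most cells with Col1a1 only held none of the loci, although this class held 7 of the 10 cells with a locus. There 24 cells reached 1000 CPM of Col1a1 only, of which 7 held Alpl, 3 Ibsp, 2 osteocalcin and 0 Spp1, and 0 held 4 loci. At least 1 locus was found in 2 of 22 newborn cells with Col2a1 only and in 1 of 21 with both collagens. At 2 months, with 16 such cells, 14 held at least 1 locus, against 7 of the 24 newborn cells. At 24 months 5 cells were Col1a1-only, all 5 with Spp1 and 3 with osteocalcin. Fibroblast and tendon markers also differed between postnatal day 3 and 2 months. Their summed median was 7765 CPM in newborn cells with fewer than 4 loci and 679 CPM in such cells of 2 months. These medians cover cells of every collagen class and not the Col1a1-only cells alone. The part of these markers in the result was not tested.

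Markers of other cell types were examined in the cells with at least 4 loci. Of 6 haematopoietic genes, 1 was seen in the 11 cells of 2 months, with a summed level of 0 to 12.4 CPM, and Ptprc, Cd52, Laptm5, Coro1a and Fcer1g were at 0. Hba-a1, Hba-a2, Hbb-bs, Hbb-bt, Alas2 and the 5 endothelial genes were at 0 in these cells. Of 6 osteoclast genes, which matter because osteoclasts lie on the same surfaces, 2 were seen at a summed 0 to 385 CPM at 2 months, and at 24 months Ctsk alone was seen, at up to 2570 CPM in 1 cell, with Acp5, Mmp9, Ocstamp, Dcstamp and Atp6v0d2 at 0. Cartilage markers reached 1000 CPM in 3 of the 11 cells of 2 months and in 3 of the 4 of 24 months, in the latter without Acan, Cnmd, Sox9, Matn3, Col9a1 or Hapln1. Fibroblast and tendon markers, a list of 6 genes, reached a summed 1000 CPM in 7 of the 11 cells of 2 months (47.7 to 17100 CPM, median 3091, against a median of 679 CPM in cells with fewer loci) with Tnmd and Postn at 0. They did so in 4 of the 4 cells of 24 months (2792 to 17166 CPM, median 7499, against 5206 CPM) with Tnmd at 0. The 4 marrow stroma markers summed to 0 to 2197 CPM at 2 months and 0 to 11380 CPM at 24 months, each age with 1 cell over 1000 CPM. The part of these markers in the results was not tested.

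Other genes of bone were compared as lists, whose counts stand beside the shares of all genes given above for each comparison. At postnatal day 3 against 2 months these were 27.7% higher and 10% lower, and the median log2 fold of all genes was 0.18. The list medians there were -0.75 for osteoblast transcription factors, 1.54 for other bone matrix proteins, -2.16 for mineral and phosphate handling, -0.72 for osteocyte genes, 1.02 for RGD receptors and -2.74 for hypertrophic cartilage. For 24 against 2 months the same lists had medians of 0.69, 0.16, -0.19, 1.54, 0.82 and -2.17, with -2.63 over all genes.

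Of 9 osteoblast transcription factors, 6 were tested in each comparison. Against 2 months, 2 were lower and 0 higher at postnatal day 3, among them Runx2, the master factor of the lineage (23.6 against 123.5 CPM). At 24 months Sp7 was the only one lower than at 2 months (0 against 88.6 CPM, 25.4 to 137.5 CPM on the 2-month plates). Against postnatal day 3, 4 were higher at 24 months, among them Runx2 (698 CPM) and Mef2c (332 against 46.2 CPM), and Sp7 was lower (0 against 60.7 CPM). Runx2 spanned 107.6 to 1106 CPM on the 24-month plates and 30.9 to 197.1 CPM on those of 2 months, which overlap, while Sp7, which acts after it, had no read in the 15 passing cells of 24 months.

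Of 11 other bone matrix genes, 8 were tested, of which 5 were higher and 2 lower at postnatal day 3 than at 2 months. Col1a1 read 25382 CPM against 743 to 16318 CPM on the 2-month plates, Col5a1 911 against 58.5 CPM and Col5a2 1964 against 642 CPM, whereas Omd (osteomodulin, a bone proteoglycan) read 5.37 against 178.2 CPM. At 24 months Col5a1 was higher than at 2 months (534 CPM) and Mgp, an inhibitor of calcification, was lower (898 against 3921 CPM). With wells from 500 genes on, 5 genes of this list met the rule for 24 against 2 months in place of 2.

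Of 8 genes that supply or control mineral, 6 were tested at postnatal day 3 against 2 months, of which 2 were lower and 0 higher. Smpd3, a sphingomyelinase required for skeletal mineral, read 43.6 CPM against 475 CPM at 2 months, and the phosphate carrier Slc20a1 112.9 against 843 CPM. At 24 months Fam20c, the kinase that phosphorylates SIBLING proteins, was lower than at 2 months (25.6 against 327 CPM), the only gene of this list to meet the rule there. Of 8 osteocyte genes, 5 were tested, of which 2 were higher (Cd44, 127.25 against 27.7 CPM, and Pdpn, 16.4 against 4.79 CPM) and 1 lower (Dstn, 166.15 against 487 CPM) at postnatal day 3. For 24 against 2 months 4 of that list were tested and 0 met the rule, although 3 did with wells from 500 genes on. In passing cells Gja1, which encodes a gap junction protein, read 915 and 246.9 CPM and Dstn 536 and 487 CPM.

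Receptors for the RGD motif of Spp1 and Ibsp were a list of 6 integrin genes, of which 5 were tested at postnatal day 3 and 4 at 24 months against 2 months. Itgb5 was higher than at 2 months (106.8 CPM) both at postnatal day 3 (377 CPM) and at 24 months (405 CPM), and Itga8 was higher at postnatal day 3 (18.7 against 4.90 CPM). With wells from 500 genes on, 0 of this list met the rule for 24 against 2 months. Of 6 hypertrophic cartilage genes, 4 were tested, of which 3 were lower and 1 higher at postnatal day 3 than at 2 months. Mmp13, a collagenase shared with osteoblasts, read 0 against 460.0 CPM, the channel gene Panx3 37.2 against 381 CPM and Pth1r 181.5 against 737 CPM, while Col10a1 read 386 against 17.7 CPM. The newborn level of Col10a1 came from 2 cells, 1 of them the cell with 4 loci. At 24 months Panx3 had no read and was the only one lower than at 2 months.

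The genes whose level followed the members most closely across all passing cells were found by Pearson's r with the mean log2(CPM + 1) of the 9 loci, among 9931 genes detected in at least 10 cells. Among the closest were Car3 (r = 0.63), Lrp4 (0.55), Cadm1 (0.53), Ppfia2 (0.51), Gja1 (0.45) and Hpgd (0.45). Col1a1 had r = 0.23 (rank 86), Runx2 had r = 0.19, and Col2a1 had r = -0.24. Within the 2-month cells alone Col1a1 had r = 0.53, and Car3 had r = 0.56. Within the cells of 2 months, Bmp1 (0.44), Bglap3 (0.43) and Panx3 (0.43) led for osteocalcin, and Cp (0.60), Ltbp1 (0.52) and Lgals1 (0.50) for Ibsp. Bglap3 averaged 1.04 CPM at 2 months and shares sequence with Bglap and Bglap2. Its correlation with osteocalcin therefore cannot be told apart from reads shared out between these genes. Car3 was detected in 16 cells and Ppfia2 in 10, so these values rest on few cells.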

How the data were processed

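The deposited table holds RSEM expected counts per gene symbol; per the submitters' processing notes, reads were handled with bcl2fastq 2.18, STAR 2.4 and RSEM 1.2.21 on GRCm38.p6. The annotation release is not given in the sources used here. Counts were rounded to whole numbers and spike-ins left out. The well position, plate, age and barcode pair in each column name gave its sample; 1 column had no counterpart and stayed out. Plate CPM, size rule and thinning were computed with Python 3.11.15, numpy 2.4.6, pandas 2.3.3 and scipy 1.17.1; edgeR 4.0.16 gave TMM factors as an alternative only. A test of counts across samples was not made because each age is 1 sample. Scripts were tested on simulated data. Doublets were not called. Positions come from GENCODE M21. The members, lists and rules were chosen with earlier results of these data known. Named genes are the 10 members, up to 4 per list and comparison that met the rule with the largest fold (otherwise the 2 with the highest level), and the 8 most alike genes; a few items that meet this rule are not reported here. Likeness within 2-month cells, the collagen limit and the wells not passing were added after the data were seen. Intervals cover counting error only.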

Additional observations from a re-analysis of the deposited data

Results flagged for a closer look

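Reads outside the passing cells carried much of the signal of several members. At 24 months, wells that did not pass held 89.1% of the Ibsp reads, 86.1% of the Spp1 reads, 98.9% of the Dmp1 reads, 99.6% of the Phex reads, 100% of the Mepe reads and 63.7% of the Alpl reads, against 66.3% of all gene reads of that age. Only 31.4% of the Bglap reads, 16.6% of the Bglap2 reads, 9.77% of the Col22a1 reads and 0.16% of the Ifitm5 reads lay in such wells. At 2 months the wells that did not pass held 64.4% of the Phex reads and 93.9% of the Mepe reads, against 19.5% of all gene reads.

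Wells that passed were 53.7% at 2 months and 5.21% at 24 months, and those that did not pass ranged from under 1000 gene reads to depths like those of passing cells. At 24 months 88 wells that did not pass had at least 50000 gene reads, all of them short of 1000 genes with a median of 534 genes, and 70 of the 88 held at least 1 locus and 12 at least 4. At 2 months 55 such wells held a locus in 28 cases and at least 4 loci in 3. Wells with fewer than 1000 gene reads held 0 reads of any member at each of the 3 ages. Single wells led: 1 well of 24 months with 772 genes held 33629 of the 34834 Mepe reads, and 1 of 2 months with 522 genes held 82230 of the 91836.0 Mepe reads. One well of 24 months with 695 genes held 79588 Dmp1 reads and 735732 Spp1 reads, at 30751 and 284272 CPM. The comparison of ages in passing cells leaves these wells out, and the part of the gene limit in it was not tested beyond the settings given for wells from 500 genes on.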

How the results depend on the processing

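With only cells of at least 2000 genes and 200000 reads, which leaves 1 cell at 24 months and 43 at 2 months, 6713 genes and 7 members differed between 24 and 2 months (2748 and 0 as reported), 4 members between postnatal day 3 and 2 months (7 as reported), and 7865 genes and 8 members between 24 months and postnatal day 3 (5093 and 4). Cells with at least 4 loci were then 2.33% at 2 months and 100% at 24 months, and cells with at least 1 locus 72.1% and 100%. Other signs turned for values that did not meet the rule, such as Dmp1 (2.73) and Phex (1.71) for 24 against 2 months with wells from 500 genes on. Signs turned under the strict limits for 24 against 2 months in Phex (log2 fold 4.14), Alpl (-9.10) and Col22a1 (10.61), and for 24 months against postnatal day 3 in Alpl (-9.10). Leaving out plates moved Alpl between -7.62 and 1.95 against 2 months and between -7.67 and 1.90 against postnatal day 3, the lowest without plate 5, and within batch 3 it was -7.67. With a minimum of 50 CPM, 1176, 1792 and 1992 genes differed for 24 against 2 months, postnatal day 3 against 2 months (3642 as reported) and 24 months against postnatal day 3. Leaving out the highest cell of each gene gave 1 member for 24 against 2 months (Dmp1). At least 3 loci were found in 14.3% of 2-month cells.

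Leaving out each plate in turn gave 2734 to 4571 genes and 0 to 3 members for 24 against 2 months, the most genes without plate 1. It gave 4236 to 4807 genes and 5 to 9 members for postnatal day 3 against 2 months, and 5989 to 6104 genes and 4 to 6 members for 24 months against postnatal day 3. Cells with at least 4 loci were 4.71% to 9.52% at 2 months and 10% to 40% at 24 months, the lowest without plates 4 and 5. Cells with at least 1 locus were 55.3% to 64.3% and 70% to 80%. Other settings kept the counts of members and genes within 1.5 times, while the counts of the 6 gene lists moved further in 58 of their comparisons with other settings. Of genes that differed between 24 and 2 months, 4.95% were higher, but 15.7% with wells from 500 genes on and 19.1% without a cell filter. The share higher at postnatal day 3 than at 2 months was 73.5%, and 56.4% without plate 1. For 24 months against postnatal day 3 it was 4.61%, and 17.5% without a cell filter. Among 2-month cells above the Col1a1 limit, 39.1% held at least 4 loci, 34.5% with a limit of 100 CPM and 70% with 10000 CPM. The cause of these changes was not tested. No paired analysis was possible because the labels give no replicate numbers that pair wells across ages.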
